A study of Mus musculus with 8 samples.

Results

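The genes described are 10 regulators of ARF GTPases, 6 guanine nucleotide exchange factors (Cyth1, Cyth2, Cyth3, Cyth4, Iqsec1 and Psd4) and 4 GTPase activating proteins (Acap1, Acap2, Asap1 and Git2). They were taken as all probe sets whose single platform gene symbol is one of these names, which gave 10 probe sets for 10 genes, of 34472 probe sets on the array. No probe set with several symbols names any of them. All 10 had levels above the filter on dim probe sets and were tested with 14002 probe sets of 13296 genes. Affymetrix Mouse Gene 2.0 ST arrays were used to measure RNA of mouse neutrophils, drawn from air pouches after lipopolysaccharide (LPS) injection and purified by negative selection. The Arf6 conditional knockout (cKO) is labelled flox+/+Cre+/+ and had 3 arrays, the Cre control is flox-/-Cre+/+ and had 2, and the flox control is flox+/+Cre-/- and had 3. All groups received LPS, and each array held RNA of a pool of neutrophils from 5 mice. The cKO shares Cre with the Cre control and the floxed allele with the flox control, and no group lacked both. The sources used here do not name the promoter that drives Cre, the strain or the age of the mice.

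ARF proteins are small GTPases that recruit coats, lipid-modifying enzymes and tethers to membranes when GTP is bound. Exchange factors of the Sec7 family load them with GTP, and GTPase activating proteins, or GAPs, make them hydrolyse it. ARF6 acts at the plasma membrane and on recycling endosomes, where it takes part in actin remodelling, integrin traffic and phagocytosis, all of them processes that a migrating neutrophil uses.

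Arf6 served as the check of the labels. Its log2 intensity was 6.49, 6.06 and 6.20 in the cKO arrays, 7.79 and 7.86 in the Cre control and 8.19, 8.20 and 7.68 in the flox control. The 3 cKO arrays were below all 5 control arrays, and the log2 fold change against both controls was -1.67 (SE 0.15, adjusted p = 0.0122 by limma), a call that was lost without either Cre control replicate, without flox control replicate 2 or without a pair of pools named next (adjusted p up to 0.182), while the log2 fold change stayed between -1.79 and -1.58 over the 15 alternatives. A second Arf6 probe set was at -0.15 (SE 0.15, adjusted p = 0.816). Titles and genotype labels give the groups used here, and in every sample the source field names a different genotype. Pools differed in sex-linked transcripts, since cKO replicate 1 had Eif2s3y, a Y-linked gene, at 4.08 where the other arrays had at least 8.66, and flox control replicate 1 had Xist at 5.46 where the others had at least 7.84. Of 10 neutrophil markers 9 were above the median of all values (5.45) in every array, and Ly6g lay between 10.54 and 11.47. Markers of T and NK cells summed to 9.84 to 10.02 (log2) in the cKO, 10.17 to 10.26 in the Cre control and 9.37 to 9.77 in the flox control, with 5 of 10 above that median and Cd4 and Klrb1c under it in every array. Marker sums are the log2 of summed linear intensities, so the brightest genes of a list weigh most. Macrophage and monocyte markers summed to 13.04 to 13.27, 13.19 to 13.25 and 13.11 to 13.38 in the cKO, the Cre control and the flox control, with 7 of 7 above the median throughout.

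No exchange factor or GAP of the 10 passed the threshold (adjusted p under 0.05, limma) in the cKO against both controls, against the Cre control or against the flox control, or between the control groups. Of the 10, 6 had at least 1 pair of groups whose arrays did not overlap, namely Cyth1, Cyth2, Cyth4, Acap1, Acap2 and Git2, while the arrays of Cyth3, Iqsec1, Psd4 and Asap1 overlapped in all 3 pairs. Of all probe sets tested, 50.6% had at least 1 such pair, so the count for the regulators is near that background. In bulk arrays, fewer cells of a type and less RNA per cell cannot be told apart.

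**Figure D1:**
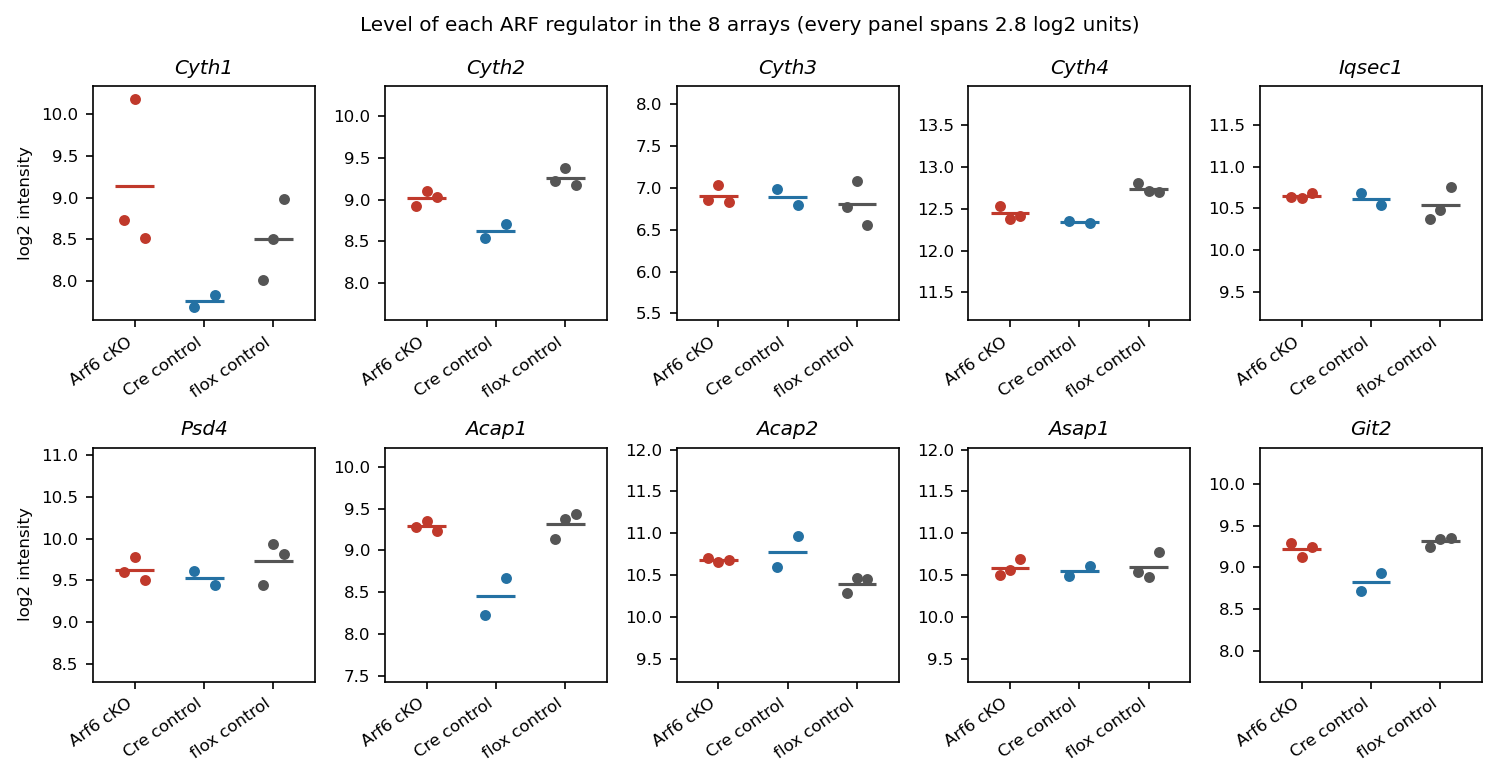
Log2 intensity of each regulator in the Arf6 cKO (3 arrays), the Cre control (2) and the flox control (3). Points are arrays and lines are group means, and each panel spans 2.8 log2 units around its own gene. Acap1, Git2, Cyth1, Cyth2 and Cyth4 lie lowest in both Cre control arrays, and Cyth1 has its highest value (10.18) in cKO replicate 2.

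The cytohesins are exchange factors with a lipid-binding pleckstrin homology domain, and cytohesin-1, the product of Cyth1 (gene ID 19157, chromosome 11), is known to bind the cytoplasmic tail of the leukocyte integrin chain encoded by Itgb2. Cyth1 had log2 intensities of 8.73, 10.18 and 8.52 in the cKO, 7.69 and 7.83 in the Cre control, and 8.01, 8.51 and 8.98 in the flox control. The Cre control arrays were below all others, the cKO and flox control arrays overlapped, and cKO replicate 2 stood 1.20 above the next highest array. The mean was 9.15 ± 0.90 in the cKO (SD, n = 3), 7.76 ± 0.10 in the Cre control (n = 2) and 8.50 ± 0.49 in the flox control (n = 3), and Cyth1 had the largest pooled SD within groups of the 10 genes (0.65, against 0.07 to 0.20 for the others). Against both controls the log2 fold change was 1.02 (SE 0.36, 95% interval 0.22 to 1.81, adjusted p = 0.423, limma). It was 0.50 (adjusted p = 0.944) without cKO replicate 2, so a large part of the size came from that array. Without cKO replicate 3 it was 1.33. The exact permutation test of the 3 cKO arrays against the plain mean of the 5 controls gave p = 0.0893 (two-sided). Against the flox control Cyth1 was at 0.64 (SE 0.39), and at 0.13 without cKO replicate 2. Against the Cre control it was at 1.39 (SE 0.44, adjusted p = 0.243), and at 0.87 without cKO replicate 2.

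Cyth2 (gene ID 19158, chromosome 7), whose product is also called ARNO, showed graded groups. Its log2 intensity was 8.93, 9.10 and 9.03 in the cKO, 8.54 and 8.71 in the Cre control, and 9.22, 9.38 and 9.18 in the flox control. No pair of groups overlapped, with the flox control highest and the Cre control lowest. The Cre control minus flox control difference was -0.63 (SE 0.13, 95% interval -0.92 to -0.34, adjusted p = 0.0682), the cKO was at 0.39 (SE 0.13, adjusted p = 0.249) against the Cre control and at -0.24 (SE 0.12, adjusted p = 0.651) against the flox control. Since the cKO lay between the controls, its difference from their mean was 0.08 (SE 0.10, 95% interval -0.15 to 0.31).

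Cyth4 (gene ID 72318, chromosome 15) encodes the cytohesin that is mainly found in blood cells. It had log2 intensities of 12.54, 12.38 and 12.42 in the cKO, 12.35 and 12.33 in the Cre control, and 12.81, 12.71 and 12.70 in the flox control. The flox control arrays stood above all others, and the cKO arrays lay just above those of the Cre control. The group means were 12.44 ± 0.08 in the cKO (SD, n = 3), 12.34 ± 0.01 in the Cre control (n = 2) and 12.74 ± 0.06 in the flox control (n = 3). The cKO minus flox control difference was -0.29 (SE 0.11, adjusted p = 0.527), and the Cre control minus flox control difference was -0.40 (SE 0.12, adjusted p = 0.162). Both comparisons share the flox control arrays.

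The remaining exchange factors varied little between groups. Cyth3 (gene ID 19159, chromosome 5), whose product (GRP1) binds the lipid made by phosphoinositide 3-kinase, had 6.86, 7.03 and 6.83 in the cKO, 6.99 and 6.80 in the Cre control, and 6.77, 7.08 and 6.56 in the flox control. Iqsec1 (gene ID 232227, chromosome 6), which encodes an ARF6 exchange factor of the BRAG family that is known to act in integrin endocytosis, had 10.64, 10.62 and 10.69 in the cKO, 10.68 and 10.54 in the Cre control, and 10.37, 10.48 and 10.76 in the flox control. Psd4 (gene ID 215632, chromosome 2) encodes a member of the EFA6 family of plasma membrane ARF6 exchange factors. It had 9.60, 9.78 and 9.50 in the cKO, 9.61 and 9.44 in the Cre control, and 9.44, 9.94 and 9.82 in the flox control. For each of these genes the groups overlapped in every pair, and the flox control arrays spread widest. Against both controls Cyth3 was at 0.06 (95% interval -0.24 to 0.35), Iqsec1 at 0.07 (-0.18 to 0.33) and Psd4 at 0.00 (-0.30 to 0.31).

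Among the GAPs, Acap1 (gene ID 216859, chromosome 11) had the largest difference between the control groups. Its product is a GAP for ARF6 that is known to promote recycling of cargo such as integrins from endosomes. Acap1 had log2 intensities of 9.28, 9.35 and 9.23 in the cKO, 8.23 and 8.67 in the Cre control, and 9.14, 9.38 and 9.43 in the flox control. The cKO and flox control arrays lay together, and both Cre control arrays lay below all 6 of them. The mean was 9.29 ± 0.06 in the cKO (SD, n = 3), 8.45 ± 0.31 in the Cre control (n = 2) and 9.32 ± 0.16 in the flox control (n = 3). Acap1 was 1.82-fold lower in the Cre control than in the flox control (log2 -0.87, SE 0.16, 95% interval -1.22 to -0.51, adjusted p = 0.0524, limma), just short of the threshold. It passed with array weights (-0.90, adjusted p = 0.00855), under which 5.85% of all probe sets passed, and without cKO replicate 2 (-0.87, adjusted p = 0.038), where 1.68% did. The difference was -0.65 (adjusted p = 0.416) without Cre control replicate 1 and -1.08 (adjusted p = 0.182) without Cre control replicate 2. The cKO was at 0.84 (SE 0.16, adjusted p = 0.113) against the Cre control, at -0.03 (SE 0.14, 95% interval -0.35 to 0.28) against the flox control and at 0.40 (SE 0.13, adjusted p = 0.389) against both. With array weights it passed against the Cre control (0.83, adjusted p = 0.0346), where 1.04% of all probe sets did. The T and NK cell markers, summed, were higher in both Cre control arrays than in any other array, and in the Cre control minus the flox control 7 of the 8 tested were above 0 and 1 (Cd3d, -0.48) was below, with a median of 0.76, none past the threshold by limma and 6 at an unadjusted p under 0.05. Their part in the Acap1 values was not tested.

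Git2 (gene ID 26431, chromosome 5) encodes a GAP and scaffold that binds PIX exchange factors and PAK kinases and, in mouse neutrophils, is known to act in chemoattractant receptor signalling. It had log2 intensities of 9.29, 9.12 and 9.25 in the cKO, 8.72 and 8.93 in the Cre control, and 9.25, 9.34 and 9.35 in the flox control. As with Acap1, the Cre control arrays were below all others. Git2 was at -0.49 (SE 0.13, 95% interval -0.77 to -0.21, adjusted p = 0.118) in the Cre control minus the flox control, at 0.39 (SE 0.13, adjusted p = 0.243) in the cKO minus the Cre control, and at -0.09 (SE 0.11, 95% interval -0.35 to 0.16) in the cKO minus the flox control. With array weights, which called 5.85% of all probe sets, the difference between the controls passed (-0.51, adjusted p = 0.0305), as did that of Cyth2 (-0.70, adjusted p = 0.011).

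Acap2 (gene ID 78618, chromosome 16) encodes an ARF6 GAP that is also an effector of the GTPase RAB35, and here the flox control was the group that stood apart. Acap2 had 10.70, 10.66 and 10.68 in the cKO, 10.59 and 10.97 in the Cre control, and 10.28, 10.46 and 10.45 in the flox control. All 5 arrays with Cre were above the 3 arrays without it. Of all probe sets, 5.93% had the cKO arrays above those of the flox control and 15.3% had the Cre control arrays above them. The share with both was not counted. The cKO minus flox control difference was 0.28 (SE 0.13, adjusted p = 0.607) and that of the Cre control minus the flox control 0.38 (SE 0.14, adjusted p = 0.254), with the flox control arrays shared. Without Cre control replicate 2, the higher of the pair, this control difference was 0.19. Asap1 (gene ID 13196, chromosome 15), a GAP of podosomes and focal adhesions that acts mainly on ARF1 and ARF5, had 10.50, 10.56 and 10.69 in the cKO, 10.49 and 10.61 in the Cre control, and 10.54, 10.47 and 10.78 in the flox control. These groups overlapped in every pair, and against both controls Asap1 was at 0.01 (SE 0.11, 95% interval -0.24 to 0.26).

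The promoters of the genes whose arrays separated groups are shown for those with a single start position in the RefSeq table, counting starts 1 base apart as one, so that the sequence upstream of each can be read beside its values. The windows hold the 250 bases before the RefSeq transcription start (build GRCm38.p6), written 5′ to 3′ on the gene's strand, with GC boxes (GGGCGG on either strand), the sites Sp1 family factors are known to bind, in capitals.
Cyth2, chr7:45814317-45814566, minus strand: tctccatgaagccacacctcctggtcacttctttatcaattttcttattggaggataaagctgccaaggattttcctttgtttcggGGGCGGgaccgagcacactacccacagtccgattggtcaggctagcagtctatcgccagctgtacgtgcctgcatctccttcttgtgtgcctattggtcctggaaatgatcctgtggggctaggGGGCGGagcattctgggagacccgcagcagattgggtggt
Cyth4, chr15:78596797-78597046, plus strand: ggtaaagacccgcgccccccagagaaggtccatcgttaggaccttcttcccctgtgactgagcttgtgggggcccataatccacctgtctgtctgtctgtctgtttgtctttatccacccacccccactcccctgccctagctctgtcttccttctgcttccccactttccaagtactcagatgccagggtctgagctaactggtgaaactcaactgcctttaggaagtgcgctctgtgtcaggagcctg
Git2, chr5:114773493-114773742, minus strand: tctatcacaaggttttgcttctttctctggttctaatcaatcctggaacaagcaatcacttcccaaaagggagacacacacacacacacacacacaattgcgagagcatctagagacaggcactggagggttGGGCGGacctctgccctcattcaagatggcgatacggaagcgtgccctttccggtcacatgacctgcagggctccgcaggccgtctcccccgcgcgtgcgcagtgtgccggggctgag
Acap2, chr16:31201239-31201488, minus strand: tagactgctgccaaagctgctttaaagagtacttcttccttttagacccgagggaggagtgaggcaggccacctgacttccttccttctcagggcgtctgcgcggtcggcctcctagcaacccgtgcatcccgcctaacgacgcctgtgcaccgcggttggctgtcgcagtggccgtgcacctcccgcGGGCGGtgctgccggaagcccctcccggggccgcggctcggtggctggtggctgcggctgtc
Cyth2 held 2 GC boxes, Git2 and Acap2 1 each, and Cyth4 none. Of the 10 genes, 8 had RefSeq promoter entries, with 14 windows, and 10 of these windows held a GC box, against 32.7% of 32817 windows of all genes. Both counts take every listed start as a window, and with the Git2 starts 1 base apart taken as 1 it was 9 of 13. The ETS-class motif CCGGAAGT, searched on both strands, was found in 1 of the 14 windows, a Psd4 start, against 2.88% of all windows. Acap1 and Asap1 had no entry. These matches describe the letters only.

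Whether the regulators move with loss of Arf6 was addressed first against both control groups. Of the 10 genes 9 were above 0, with Psd4 (0.00) and Asap1 (0.01) barely so, and 1 was below. The median log2 fold change of the 10 was 0.08, where the median over all 14002 probe sets was 0.01 and 53.4% were above 0. None passed the threshold, which 0.00714% of all probe sets did. An unadjusted p under 0.05 by limma was found for Cyth1 and Acap1, 2 of the 10, against 9.52% of all probe sets. The exact permutation test of the 3 cKO arrays against the 5 controls gave p = 0.0893 for Cyth1 and p = 0.375 for Acap1. That test takes the plain mean of the 5 control arrays, not the mean of the 2 control groups, so it is not a check on the same difference. Against the flox control alone Acap1 was at -0.03. No member had its 3 cKO arrays beyond all 5 controls, which 4.36% of probe sets did. For the 8 genes without an unadjusted p under 0.05 here, the 95% intervals ran from -0.31 at the lowest to 0.38 at the highest. These intervals are not adjusted for the number of genes. They are for the difference from the mean of the 2 control groups and set no bound on the difference from either one. Against the Cre control alone, Cyth2 and Git2 were each 1.31-fold higher in the cKO. Against the flox control alone they were at -0.24 and -0.09 (log2). In the cKO against both controls the median was 0.06 among the exchange factors and 0.12 among the GAPs.

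**Figure D2:**
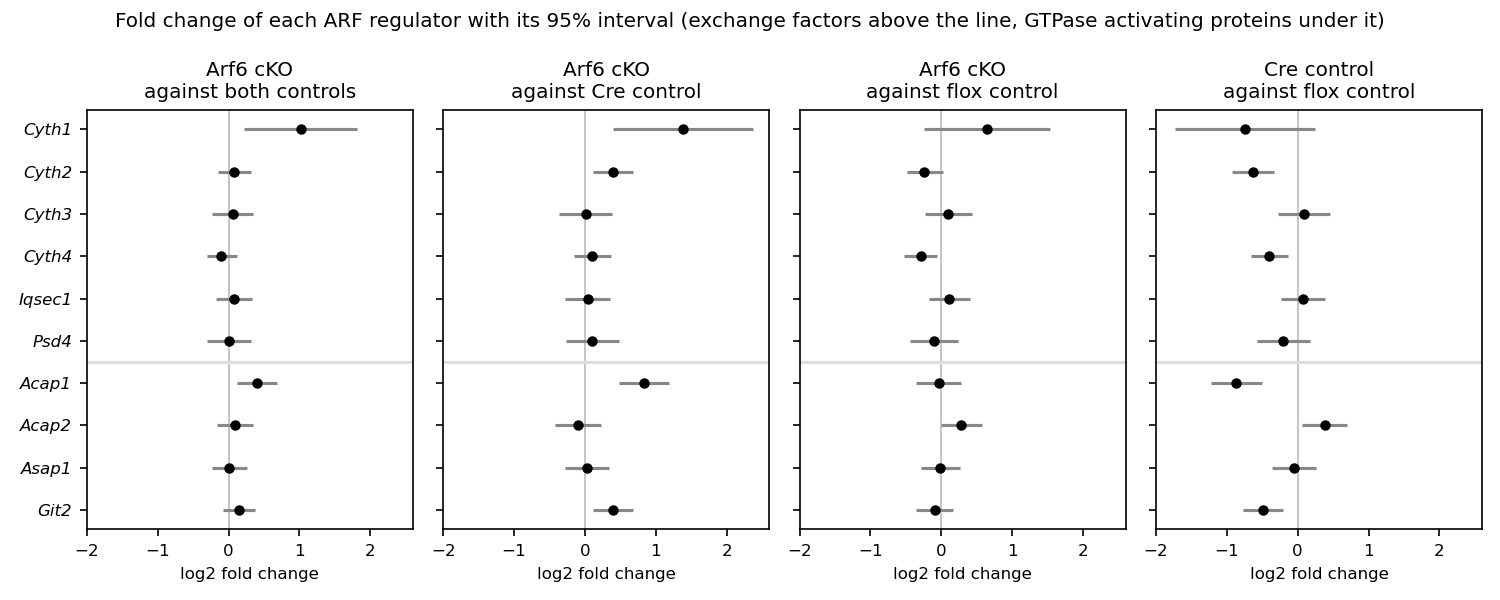
Log2 fold change (points) with its 95% interval (lines) for each regulator in the 4 comparisons, from the limma fit of all 8 arrays. Against both controls most genes sit near 0, and between the control groups Acap1 (-0.87), Cyth1 (-0.74), Cyth2 (-0.63), Git2 (-0.49) and Cyth4 (-0.40) lie on the lower side.

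Set against the Cre control alone, the cKO is compared with mice that share Cre and lack floxed Arf6. Of the 10 genes 9 were above 0, with a median of 0.10 (0.01 over all probe sets, of which 52% were above 0). None passed by limma, a rule that 0.0714% of probe sets met, and 4 had an unadjusted p under 0.05 (Acap1, Cyth1, Git2 and Cyth2), against 13.5% of all. In 5 genes all cKO arrays were above both Cre control arrays, which held for 18.5% of all probe sets. The exact permutation test of 3 arrays against 2 cannot go below 0.10. Besides those 4 genes this was Cyth4, at 0.10 (SE 0.12).

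Against the flox control, which asked about the cKO in mice with the same floxed allele, 4 of the 10 genes were above 0 and 6 below. The median was -0.02 (0.01 over all probe sets, of which 52.4% were above 0). None passed by limma (0.0429% of all probe sets did), and 1 gene, Cyth4, had an unadjusted p under 0.05, against 8.26% of all. The arrays did not overlap in 3 genes, of which Cyth2 and Cyth4 were lower in the cKO, as were 6.31% of all probe sets, and Acap2 was higher, as were 5.93%. With 3 arrays against 3 the exact permutation test cannot go below 0.10, which each of these 3 genes reached.

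The control groups were compared to show how the regulators differ between the mouse lines while Arf6 is present. In the Cre control minus the flox control 3 genes were above 0 and 7 below, with a median of -0.30. The median over all probe sets was 0.00, and 49.2% of them were above 0. The median of the exchange factors was -0.30 and that of the GAPs -0.27. Acap1, Cyth2, Git2, Cyth4 and Acap2 (5 of the 10) were at an unadjusted p under 0.05 by limma, against 14.7% of all, and none passed after adjustment, which 0.486% did. In 5 genes both Cre control arrays were below all 3 flox control arrays, which held for 17.4% of probe sets, and in 1, Acap2, they were above, which held for 15.3%. The Cre control arrays are shared with the comparison of the cKO against the Cre control. The neutrophil markers, summed, were 15.96 and 16.01 in the Cre control, against 16.13 to 16.14 in the flox control, with 9 of the 10 below 0 in this comparison and none past the threshold (3 at an unadjusted p under 0.05). The T and NK cell markers, whose median in this comparison is given with Acap1, were 10.17 and 10.26 in the Cre control, against 9.37 to 9.77 in the flox control. Of the 7 macrophage and monocyte markers 5 were above 0 and 2 below, with a median of 0.20, and 1 (C1qb, 0.76, adjusted p = 0.272) had an unadjusted p under 0.05. The part of these 3 marker lists in the regulators' values was not tested.

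Seen by array, 7 and 8 of the 10 genes were below their own median over the 8 arrays in Cre control replicates 1 and 2, with median deviations of -0.09 and -0.16. In flox control replicates 2 and 3, 4 and 2 genes were below it, with median deviations of 0.11 and 0.16. Flox control replicate 1 was unlike the other arrays of its group, with 7 genes below and a median deviation of -0.09. The cKO arrays lay between, with 3, 3 and 6 genes below and deviations of 0.02, 0.04 and -0.01. Over all tested probe sets these deviations were between -0.01 and 0.01 in every array.

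Of the other genes of the pathway, 64 had a probe set and 58 were tested, leaving out Arf6. None of the 58 passed by limma in the cKO against both controls (0.00714% of all probe sets did), with 8 at an unadjusted p under 0.05, against 9.52% of all. Of 7 tested exchange factors outside the 10 genes, 5 were above 0 and 2 below. Arfgef2, which encodes the trans-Golgi exchange factor BIG2, had log2 intensities of 8.29, 8.94 and 7.86 in the cKO, 7.61 and 7.39 in the Cre control, and 7.41, 7.59 and 7.39 in the flox control. All 3 cKO arrays were above the 5 controls, with the highest value in cKO replicate 2, as for Cyth1. The log2 fold change was 0.88 (SE 0.21, adjusted p = 0.307). Of all probe sets, 4.36% had the 3 cKO arrays beyond the 5 controls in either direction. Psd, another EFA6 family gene, was at 6.39, 6.33 and 6.33 in the cKO, 6.70 and 6.50 in the Cre control, and 6.72, 6.96 and 6.75 in the flox control, below all controls in each cKO array (-0.36, SE 0.10, adjusted p = 0.369).

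Of 16 tested GAPs outside the 10 genes, 10 were above 0 and 6 below against both controls, with a median of 0.03. Agap2 had 7.75, 9.74 and 7.58 in the cKO, 7.08 and 7.09 in the Cre control, and 7.13, 7.52 and 7.72 in the flox control, so its highest value was in cKO replicate 2, as for Cyth1 (1.08, SE 0.42, adjusted p = 0.465). Adap2, with 8.41, 7.96 and 8.60 in the cKO, 9.06 and 8.98 in the Cre control, and 8.26, 8.49 and 8.20 in the flox control, was highest in the Cre control (-0.35, SE 0.15, adjusted p = 0.519, in the cKO minus both controls). Among 17 effectors and partners of ARF6, Exoc5, an exocyst subunit, was at 0.48 (SE 0.14, adjusted p = 0.365) and Ehd1, an ATPase of endosomal recycling, at -0.38 (SE 0.12, adjusted p = 0.377). The other 5 ARF genes lay between -0.33 (Arf4) and 0.08 (Arf1), none past the threshold.

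Between the control groups 1 of the 58 passed by limma (0.486% of all probe sets did), with 12 at an unadjusted p under 0.05, against 14.7% of all. Frmd4b, which encodes a scaffold known to bind cytohesins, had 6.81 and 6.77 in the Cre control and 5.95, 6.22 and 5.88 in the flox control, and rose by 0.77 (SE 0.13, adjusted p = 0.0456). The call held in 5 of 16 alternatives and was lost in 11, among them the omission of any 1 array other than cKO replicate 2 (adjusted p up to 0.353), while the difference stayed between 0.66 and 0.87. Arrb2, the arrestin that binds cytohesin-2 and activated receptors, had 8.75 and 8.62 in the Cre control and 9.37, 9.61 and 9.36 in the flox control (-0.76, SE 0.14, adjusted p = 0.0524). Rab35, whose product binds the protein encoded by Acap2, was at -0.66 (SE 0.16, adjusted p = 0.107), and Arhgef7, the PIX partner of Git2, at -0.39 (SE 0.14, adjusted p = 0.243). The ARF6 effectors and partners had 4 members above 0 and 13 below, with a median of -0.28, and the other GAPs had 5 above and 11 below, with a median of -0.07.

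**Figure D3:**
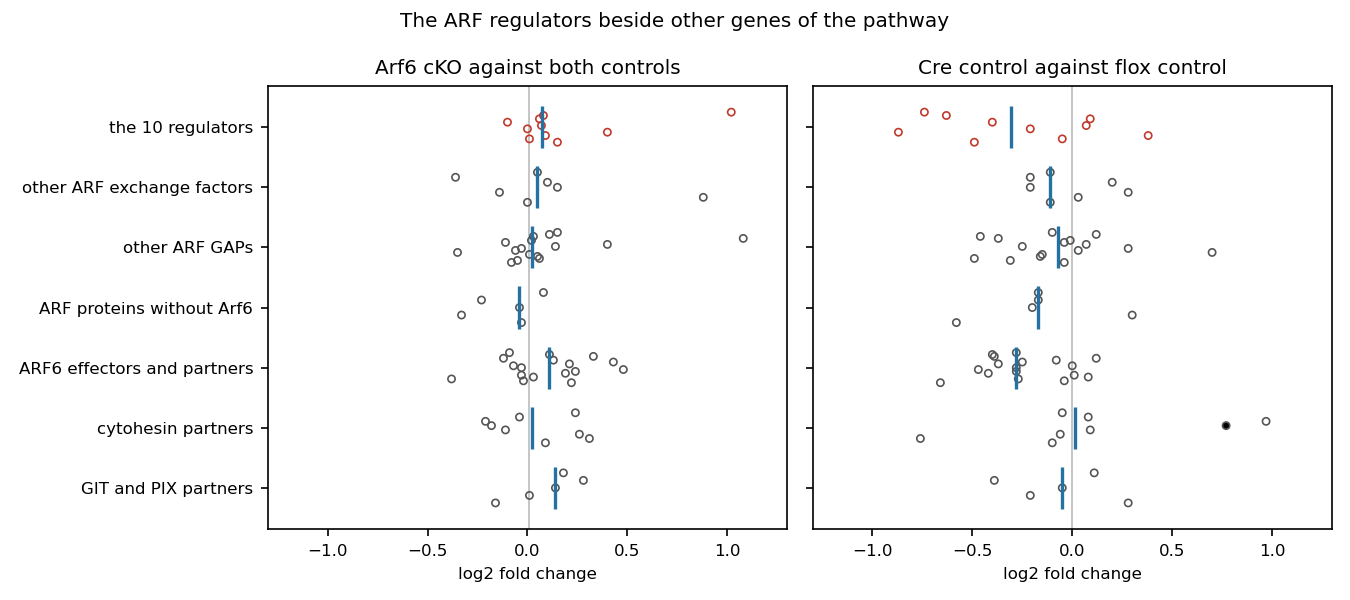
Log2 fold changes of the 10 regulators (red circles) and of other genes of the pathway (grey circles), by list, in the Arf6 cKO against both controls (left) and between the Cre and flox controls (right). Blue bars are list medians, the grey line is the median of all probe sets tested, and a filled circle passed the threshold. The median of the 10 regulators is 0.08 on the left and -0.30 on the right, and Frmd4b (0.77) is the filled circle.

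For each regulator the gene with the most similar profile was taken as that with the highest Pearson correlation over the 8 arrays among 11807 named genes, a description that picks the extreme of many. Cyth1 was followed by Eea1, which encodes a tether of early endosomes (r = 0.994, and 0.988 without the 2 arrays farthest from the Cyth1 median). Eea1 read 9.18, 10.55 and 8.98 in the cKO, 8.17 and 8.27 in the Cre control, and 8.29, 8.84 and 9.52 in the flox control, with the same array highest. Acap2 was followed by Trim25, an E3 ligase of antiviral signalling (r = 0.992, and 0.972 without 2 arrays), which read 11.44, 11.42 and 11.41 in the cKO, 11.40 and 11.57 in the Cre control, and 11.21, 11.31 and 11.33 in the flox control. Acap1 was followed by Phf1, a partner of the Polycomb complex (r = 0.981), and this rested on the Cre control arrays, since r was 0.571 without them.

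**Figure D4:**
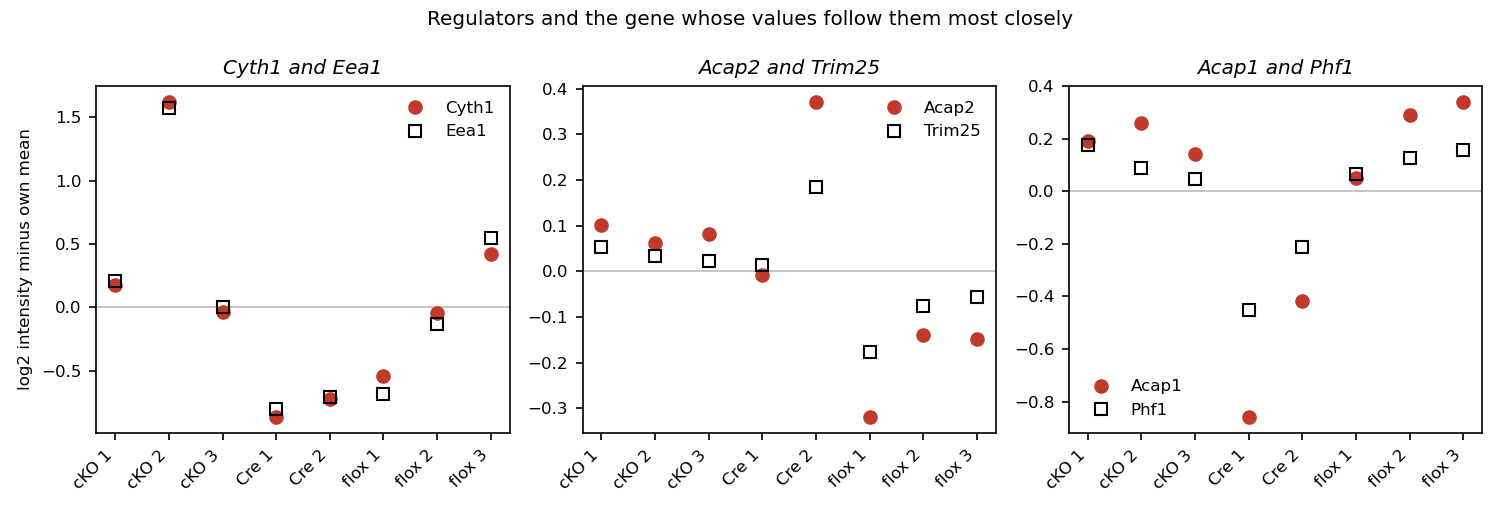
Log2 intensity minus the gene's own mean over the 8 arrays, for Cyth1 with Eea1, Acap2 with Trim25 and Acap1 with Phf1. Red circles are the regulators and open squares the genes most like them. Cyth1 and Eea1 share their peak in cKO replicate 2, and Acap1 and Phf1 share their low values in the 2 Cre control arrays.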

How the data were processed

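Per the design text, the authors subtracted background and normalized probe set intensities with Robust Multiarray Analysis in Affymetrix Expression Console, and the deposited values are log2 intensities. The sources used here name neither the software version nor a genome build, and they differ on the RNA isolation and labelling kits. Array medians were between 5.41 and 5.48 and no further scaling was applied. Groups follow the genotype labels. Replicates are separate pools and were numbered in accession order. The design states 3 pools a genotype. All 8 arrays with values here were used, and 2 of them were of the Cre control. P-values measure the spread between pools.

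Probe sets with 1 gene symbol (23521 of 34472) that exceeded the overall median of 5.45 in at least 2 arrays entered 1 fit of 3 groups, made with limma 3.58.1 under R 4.3.3 (5 residual and 4.69 prior degrees of freedom). Both controls means the mean of the 2 group means. The permutation test of 3 against 5 arrays took the plain mean of the 5 control arrays instead. Tests were two-sided, and p was adjusted by Benjamini-Hochberg over all 14002 probe sets. The fit was also run on simulated data with independent normal noise of equal spread in all arrays. Array weights here ran from 0.48 to 2.56, so that run does not give the error rates in these data. Symbols and chromosomes come from RefSeq GRCm38.p6 by gene identifier, as do the promoter sequences. The genes named were the 10 regulators, Arf6, and other pathway genes past the threshold or of smallest p in their list. The members and lists were chosen with earlier results of these data known. Precision is limited by how many arrays there are.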

Additional observations from a re-analysis of the deposited data

How the results depend on the processing

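The count of regulators past the threshold was 0 in every comparison, and it was recomputed under 15 alternatives where the cKO is set against both controls and 16 for each other comparison: other filters, quantile scaling, median centring, a trended robust prior, array weights, a fit without the third group, the omission of each array and the omission of the 2 pools with distinct sex-linked transcripts. Against both controls and against the flox control the count was 0 throughout. Against the Cre control it was 1 with array weights (Acap1, 0.83, adjusted p = 0.0346), under which 1.04% of all probe sets passed. Between the controls it was 3 with array weights (Acap1, Cyth2 and Git2), under which 5.85% of all probe sets passed, against 0.486% without weights. It ranged from 0 to 1 over the omissions of single arrays, the 1 being Acap1 without cKO replicate 2, where 1.68% of all passed. Array weights lay between 0.48 (flox control replicate 1) and 2.56 (flox control replicate 2). Of the 40 fold changes 25 kept their sign under every alternative, and the 15 that did not were at most 0.10 in size. Each regulator has a single probe set, so the alternative of other probe sets of a gene gave no value. No paired analysis was possible because the labels give no replicate number or pairing shared between groups. With 1 Cre control array left out, the lone remaining one is assumed to vary like the other groups, and adjusted p for all 10 regulators was then above the threshold.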

Other observations

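The remaining marker lists are given as the log2 of their summed linear intensities, in which the brightest genes weigh most. Dendritic cell markers (5 genes) lay between 11.30 and 11.64 in the cKO, 11.45 and 11.56 in the Cre control, and 10.91 and 11.24 in the flox control, so the sum was higher in all 5 arrays with Cre than in the 3 without it. The brightest of these 5 genes was H2-Ab1, with means of 11.01 in the cKO, 11.13 in the Cre control and 10.44 in the flox control. In the Cre control minus the flox control 3 of these genes were above 0 and 2 below, with a median of 0.06, and H2-Ab1 was at 0.70 (SE 0.17, adjusted p = 0.109) while Itgax was at -0.23 and Xcr1 at -0.05. B cell markers (5 genes, with Cd79a and Ms4a1 under the median of all values in every array) lay between 9.12 and 9.64 in the cKO, 9.55 and 9.56 in the Cre control, and 9.16 and 9.86 in the flox control. Eosinophil and mast cell markers (6 genes, with Epx, Cpa3 and Mcpt4 under that median) lay between 9.43 and 9.85 in the cKO, 9.50 and 9.80 in the Cre control, and 9.24 and 9.42 in the flox control. The part of these markers in the values of the regulators was not tested.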
